A study of Sus scrofa with 9 samples.

Results

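Cytokines, chemokines and their receptors were taken as the genes whose name on a custom porcine Agilent array follows the usual symbols of these families: interleukins and their receptors (IL and a digit), the CXCL, CCL and CX3C chemokines, the CXCR and CCR receptors, the colony-stimulating factors CSF1 to CSF3, the interferons and interferon receptors, and LIF, LIFR and MIF. The rule used names alone and no measured value. It gave 100 gene names with 146 probes, out of 49437 names and 60889 non-control probes. A gene with several probes was read from the probe with the highest mean in the authors' normalized table. Of the 100 names, 57 were ligands, 42 were receptors, and 1, IL4I1, is an enzyme that degrades amino acids and was caught by its symbol. LIFR and LIFR-beta are 2 names for the receptor of leukemia inhibitory factor, and IL8, IL23RA and IL29 are older names of CXCL8, IL23R and an interferon lambda.

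Testicular biopsies of boars had been hybridized to 9 single-colour arrays in 3 groups of 3. The controls were fertile boars with a normal karyotype and normal semen, the oligospermic boar had a normal karyotype and a low sperm count, and the t(1;14) boar, a Landrace × Duroc crossbred with low sperm number, poor motility and abnormal sperm shape, carried a balanced reciprocal translocation between chromosomes 1 and 14. The oligospermic and the t(1;14) arrays are repeated samples of 1 boar each, and the sources do not settle whether a control array holds RNA of 1 boar or of a pool of control boars, nor give the age of the animals. The p-values below therefore measure the spread between arrays, and the translocation cannot be told apart from other differences between the animals.

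Cytokines are secreted proteins that carry signals between cells through membrane receptors, many of which act through JAK kinases and STAT transcription factors. Chemokines are small cytokines that direct the movement of leukocytes through receptors coupled to G proteins, and most receptors bind several of them. In the testis, resident macrophages lie beside the steroid-producing Leydig cells, Sertoli and germ cells make members of the interleukin-1 and interleukin-6 families, and CXCL12 with its receptor CXCR4 takes part in the upkeep of spermatogonial stem cells.

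Several results rest on single probes of 60 bases, so the sequences are shown for the genes whose probes can be compared: IL10, which was above background on no t(1;14) array, IL13RA2 and CXCL2, whose probes gave like values, and CXCR4, whose probes gave unlike values. They are written 5′ to 3′ as the array file lists them, and capitals mark the longest run of bases that 2 probes of a gene share, where it is at least 12 bases. No capitals appear for IL10 and CXCR4 because the longest run shared by any 2 of their probes was 4 to 6 bases, so these probes are separate sequences. The probes were not placed on transcripts. The 24 bases shared by probes 2 and 3 of IL13RA2 and the 29 bases shared by the CXCL2 probes mean that those are not independent readings.
IL10 probe 1: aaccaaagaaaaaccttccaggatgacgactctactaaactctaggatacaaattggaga
IL10 probe 2: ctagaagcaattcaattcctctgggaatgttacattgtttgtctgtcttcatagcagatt
IL13RA2 probe 1: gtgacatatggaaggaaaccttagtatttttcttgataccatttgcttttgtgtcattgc
IL13RA2 probe 2: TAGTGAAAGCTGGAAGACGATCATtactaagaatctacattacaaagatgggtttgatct
IL13RA2 probe 3: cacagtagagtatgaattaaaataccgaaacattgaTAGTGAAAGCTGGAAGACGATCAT
CXCL2 probe 1: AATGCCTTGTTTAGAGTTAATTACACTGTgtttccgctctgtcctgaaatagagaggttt
CXCL2 probe 2: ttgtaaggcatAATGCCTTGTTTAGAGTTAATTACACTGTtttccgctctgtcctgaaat
CXCR4 probe 1: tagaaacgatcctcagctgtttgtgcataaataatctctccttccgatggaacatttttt
CXCR4 probe 2: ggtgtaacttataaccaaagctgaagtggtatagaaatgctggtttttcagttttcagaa
CXCR4 probe 3: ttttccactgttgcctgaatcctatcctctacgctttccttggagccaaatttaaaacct

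Detection was taken from the scanner software's flag for a spot well above background. Of the 100 members, 38 were detected on all 9 arrays, 35 on no array and 27 on some. On every array, 9 of 16 CC chemokines, 4 of 9 CXC and CX3C chemokines and 4 of 13 chemokine receptors were detected, and by kind 17 of 57 ligands and 20 of 42 receptors. None of the colony-stimulating factors CSF1, CSF2 and CSF3, which drive the growth of macrophages and granulocytes, was detected on any array, and the same held for IL1A, IL6, IFNG, IL1R1 and CCR7. LIF was detected on 1 oligospermic array only. A probe that is not well above background shows that the signal was too low for this array, not that the transcript was absent.

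**Figure D1:**
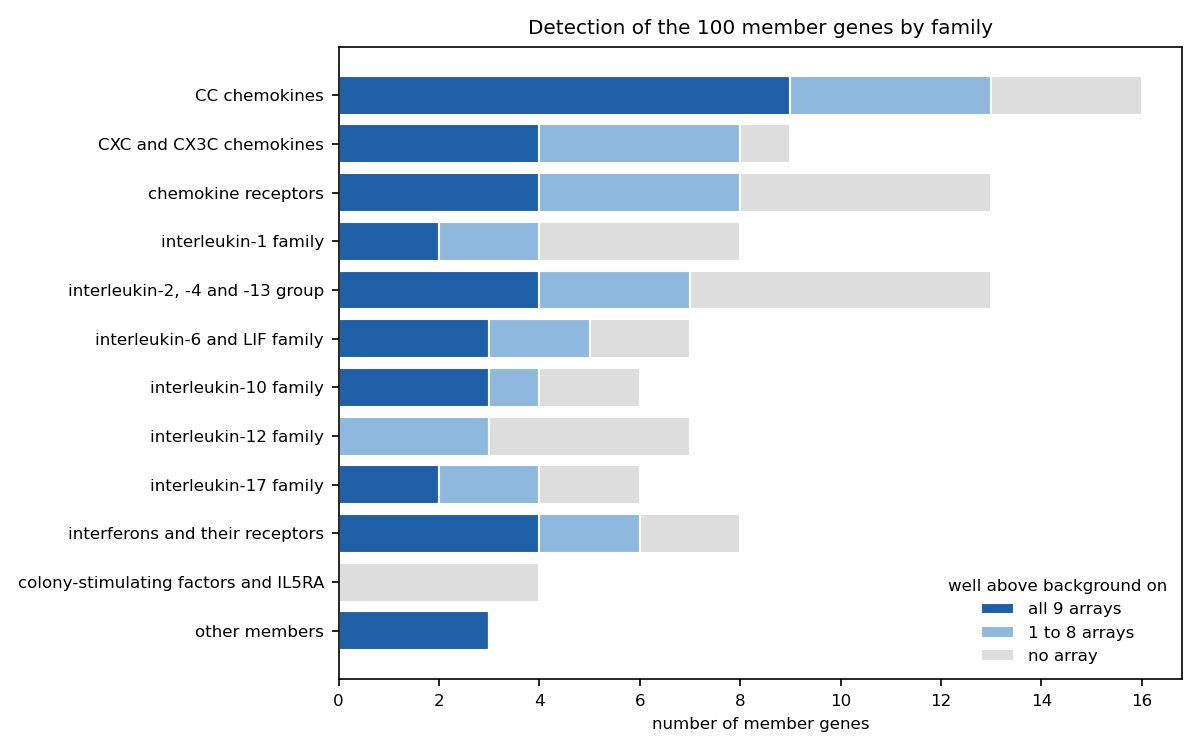
Number of member genes (x axis) in each of 12 families (y axis), coloured by whether the probe used was well above background on all 9 arrays, on 1 to 8 or on none. The 16 CC chemokines hold the most genes seen on every array (9), and all 4 genes of the group of colony-stimulating factors and IL5RA lie in the undetected class.

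The number of members detected per array lay between 51 and 56, except for t(1;14) array 2 with 43, while 60.9% to 66.7% of all probes were detected on each array. Only IFNAR2, on 1 t(1;14) array, was saturated among the probes used. Each of 3 slides held 1 array of every group. Over the 58 members tested in any comparison, the median SD between arrays was 0.45 for control, 0.29 for oligospermic and 0.18 for t(1;14) on the log2 scale, so the control arrays were the most variable. In a whole biopsy, fewer cells of a type and less RNA per cell cannot be told apart.

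The first comparison asked how these genes differed between the t(1;14) boar and the controls. Most of those that passed the test were lower in t(1;14): the anti-inflammatory cytokine IL10, the inflammatory cytokine IL1B on the probe of that name, the receptors CXCR6, IL20RB, IL13RA2, IL1RAPL2, CXCR3 and, on 1 of its 2 probes, LIFR, the chemokines CCL27, CCL22, CCL17 and CCL19, and the enzyme IL4I1. The genes higher in t(1;14) were the chemokines CXCL14, CCL21 and CXCL9, the cytokine MIF, and the receptors IL13RA1, CCR1 and IL10RB. At an adjusted p of at most 0.01, the study's threshold, 7 of 56 tested members were higher, 13 were lower and 36 did not pass. Over all 40643 probes tested, 38.3% passed (19.8% higher and 18.4% lower), against 35.7% of the members, so the share of members called was close to the background. Testing required a signal above background on 2 or more of the 3 arrays in one or the other group, and 49 of the 56 met this in both. With the study's second threshold, an absolute log2 difference of at least 2, IL10, CXCR6 and CXCL14 remained, against 5.76% of all probes. With normexp background correction none of the 3 reached it, with -0.89 for IL10, -1.26 for CXCR6 and 0.77 for CXCL14, though each kept its p below the threshold (adjusted p = 0.00142, 0.00149 and 0.00106). The median log2 difference of the tested members was -0.16, and -0.15 with the 3 genes that were below background in 1 group set to their limit, beside 0.14 for all probes tested. The arrays of the 2 groups did not overlap for 30 of the 56 members, beside 62% of all probes.

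All 20 called members differed in the same direction on each of the 3 slides. Groups whose arrays do not overlap must give 1 direction on every slide, so this is no added support for the calls. With slide as a block in the fit, 5 members were higher and 15 lower, and the calls of CCL21 (adjusted p = 0.015), CXCL14 (adjusted p = 0.0177) and IL10RB (adjusted p = 0.0143) were lost. With the block, 3 others passed: CXCR2, the receptor of CXCL2, lower with -0.88 ± 0.37 (SE, adjusted p = 0.078) without the block and an adjusted p of 0.000568 with it, IL6R, lower (adjusted p = 0.00151), and IFNAR1, higher (adjusted p = 0.00309). Of the 20 calls, 11 were kept whichever array was left out. In the paragraphs below, levels are log2 normalized intensities in the order of the replicate numbers, differences are t(1;14) minus the other group on the log2 scale, and p is from limma, adjusted over all probes tested in that comparison. The comparisons with control and with the oligospermic boar share the 3 t(1;14) arrays, so their values are given side by side and one does not check the other.

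**Figure D2:**
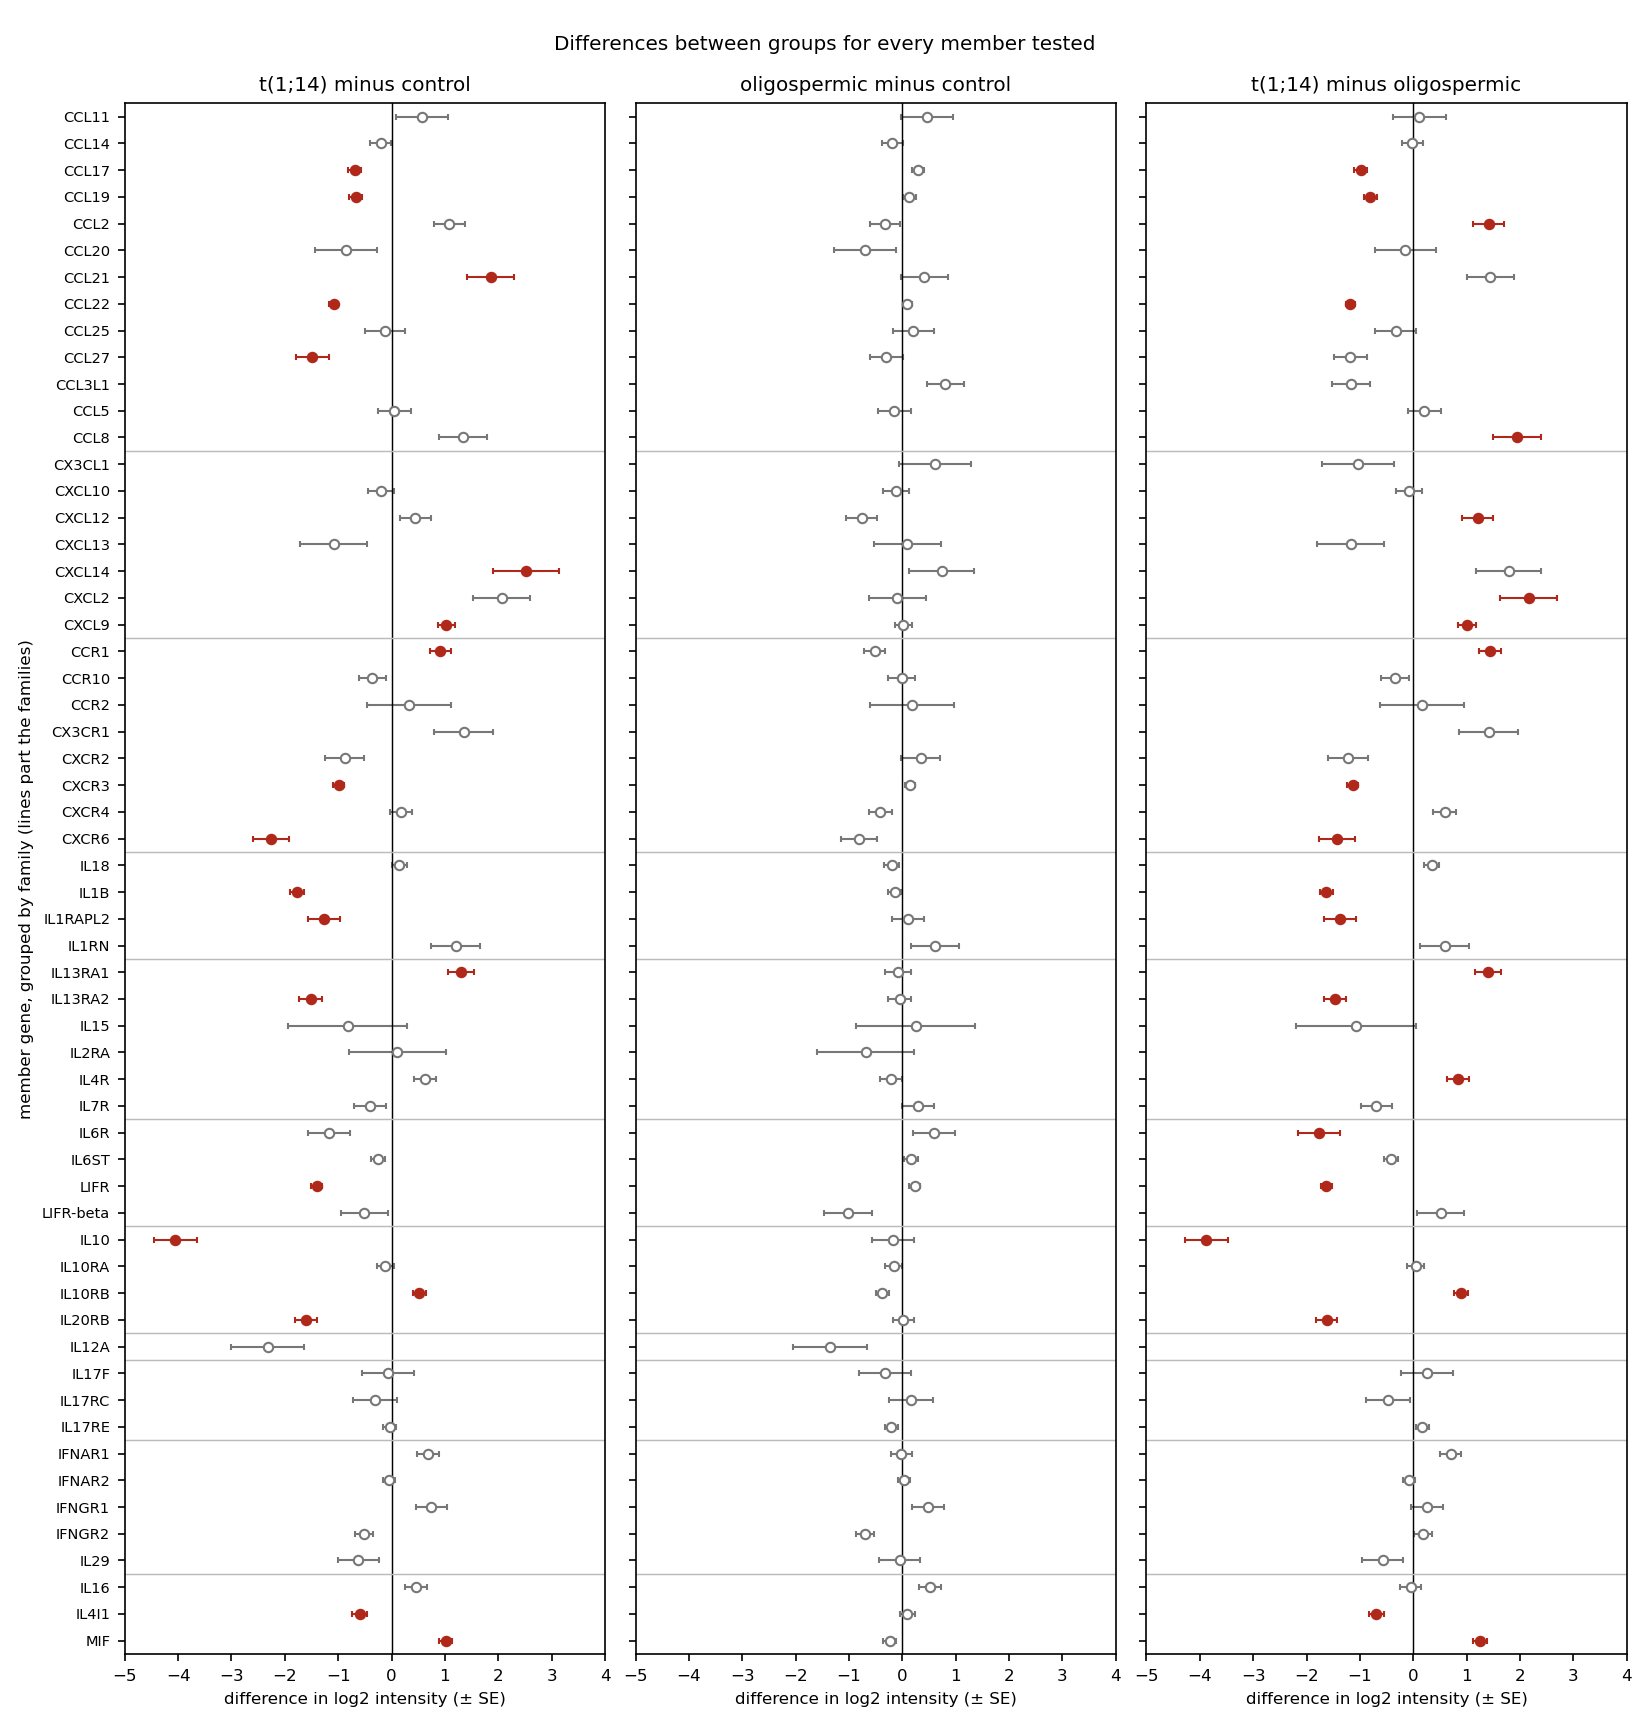
Difference in log2 normalized intensity (x axis, ± SE) for each of the 58 members tested in at least 1 comparison (y axis, by family), in 3 panels, one a comparison. Filled red points passed an adjusted p of at most 0.01 and open grey points did not: 20 are filled for t(1;14) minus control, 0 for oligospermic minus control and 23 for t(1;14) minus oligospermic. Of the points, 3, 2 and 5 in the same order had no array above background in 1 group and stand at the fitted value, where only a limit holds.

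Markers of the cell types in a biopsy moved as well. Of 10 macrophage and monocyte markers tested, the lipopolysaccharide receptor CD14 was higher in t(1;14), with 1.30 ± 0.24 (SE, adjusted p = 0.00264), the complement gene C1QC was lower, with -1.95 ± 0.13 (SE, adjusted p = 2.48e-05), and 8 did not pass. Against oligospermic 4 of the 10 were higher, with a median log2 difference of 1.07 beside 0.14 for all probes, CD14 had 1.36 ± 0.24 (SE, adjusted p = 0.00197) and C1QC, the 1 that was lower, had -1.79 ± 0.13 (SE, adjusted p = 3.20e-05). Their summed intensity was 1342 to 1947 on the control arrays, 1535 to 1802 on oligospermic and 1612 to 1948 on t(1;14). The defining T cell markers CD2, CD3D, CD3E, CD3G, CD4, CD8A and CD8B were above background on no array. Of the 6 T and NK cell markers tested, 2 passed: the death ligand FASLG, at least 8.06-fold lower (adjusted p = 1.97e-05), and the protease GZMB with -1.67 ± 0.14 (SE, adjusted p = 7.06e-05). FASLG was above background on no t(1;14) array, so it was tested only through control and its p rests on signals below background. The sum of the 14 on the array was 5276 to 9232 on control, 8069 to 9195 on oligospermic and 4590 to 5590 on t(1;14). The B cell markers CD79A and MS4A1 were below background throughout, and the neutrophil markers S100A8, S100A12 and MPO as well. The only B and plasma cell marker tested, the adaptor BLNK, was lower in t(1;14), with -2.30 ± 0.21 (SE, adjusted p = 9.34e-05) against control and -2.43 ± 0.21 (SE, adjusted p = 6.70e-05) against oligospermic, and the list's sum was 437.3 to 732.9 on control, 519.1 to 695 on oligospermic and 117 to 141.6 on t(1;14). Of the 2 neutrophil and mast cell markers tested, KIT, the receptor of stem cell factor, was higher, with 0.83 ± 0.18 (SE, adjusted p = 0.00675) against control and 1.64 ± 0.18 (SE, adjusted p = 0.000235) against oligospermic, and the sums were 1144 to 1613, 830.8 to 987.2 and 2241 to 2451 in the same order. The mast cell marker MS4A2 was above background on no array, so KIT and these sums do not show a change in neutrophils or mast cells. Leydig markers were higher in t(1;14) for 5 of 6, among them CYP11A1, the first enzyme of steroid synthesis, with 2.57 ± 0.14 (SE, adjusted p = 1.11e-05), and their sum was 60560 to 63900 on control, 48010 to 64180 on oligospermic and 122300 to 131100 on t(1;14). Spermatid markers were lower for 5 of 7, among them ACRV1, a protein of the acrosome, with -2.40 ± 0.11 (SE, adjusted p = 8.68e-06), with sums of 273900 to 304100, 271600 to 298500 and 166900 to 168500 in the same order. Of 8 peritubular and vascular markers, 2 endothelial ones were higher in t(1;14) against control, PECAM1 with 1.41 ± 0.20 (SE, adjusted p = 0.000855) and VWF with 0.91 ± 0.17 (SE, adjusted p = 0.00296), and CNN1 of smooth muscle was lower with -1.09 ± 0.18 (SE, adjusted p = 0.00161). The same counts held against oligospermic, and the sums overlapped (14140 to 25810, 15190 to 22050 and 15360 to 20620). The median log2 difference of these 8 was nevertheless 0.95 against control and 0.92 against oligospermic, beside 0.14 for all probes. Of 4 spermatocyte markers, 1 was higher and 2 were lower against control and 2 were higher and 1 was lower against oligospermic, with sums of 37810 to 49480, 47530 to 52290 and 23990 to 25400. Their mean log2 levels were 11.59 to 11.67, 11.11 to 11.31 and 11.40 to 11.43 in the same order, so the lowest were those of the oligospermic boar. In oligospermic minus control 1 of the 4 was called lower, with -2.14. Of 7 Sertoli markers, WT1 alone passed against control and was lower, with -1.43 ± 0.14 (SE, adjusted p = 0.000132), and of 2 spermatogonium markers tested, UCHL1 was higher, with 0.87 ± 0.17 (SE, adjusted p = 0.00418). The Sertoli sums were nevertheless higher in t(1;14) (11940 to 22160, 11270 to 16320 and 22840 to 24320 in the same order), as were the spermatogonium sums (2247 to 3136, 2341 to 3190 and 4342 to 4882). A sum follows the brightest genes of a list. The mean log2 level of the Sertoli list was not higher in t(1;14), with 8.97 to 9.44, 8.89 to 9.14 and 8.92 to 9.03 in the same order. These markers moved with the t(1;14) group and so with every difference of the members in it, and their part in those results was not tested.

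Among the interleukin-10 family, IL10, which restrains macrophages and T cells, had levels of 5.98, 6.22 and 4.76 on the control arrays, 5.61, 5.04 and 5.77 on the oligospermic arrays and 2.00, 1.39 and 1.41 on the t(1;14) arrays. Every control and oligospermic array was above background and every t(1;14) array was below it, with no overlap. IL10 was therefore at least 4.13-fold lower in t(1;14) than in control (adjusted p = 0.000136) and at least 3.65-fold lower than in the oligospermic boar (adjusted p = 0.000155). IL10 was tested only through the groups in which it was detected, its p rests on t(1;14) signals below background, and it was not tested when detection in both groups was required. The second IL10 probe, which shares no run of over 4 bases with the first, gave 4.73, 4.64 and 4.31 on the control arrays, 4.94, 4.19 and 4.32 on the oligospermic arrays and 1.70, 1.57 and 2.21 on the t(1;14) arrays. It too was below background on every t(1;14) array and gave a limit of at least 1.93-fold against control (adjusted p = 9.09e-05). IL20RB, the receptor chain shared by interleukins 19, 20 and 24, was 9.04, 9.67 and 9.44 on the control arrays, 9.12, 9.39 and 9.70 on the oligospermic arrays and 7.94, 7.65 and 7.75 on the t(1;14) arrays. All t(1;14) arrays were below all others, and IL20RB fell by 1.60 ± 0.20 against control (adjusted p = 0.000467) and by 1.62 ± 0.20 against oligospermic (adjusted p = 0.000397). The ligands IL19 and IL20 were detected on no array. IL10RA, the chain that binds IL10, differed from control by -0.12 ± 0.16 (SE, adjusted p = 0.551), whereas IL10RB, the chain it shares with other receptors, rose by 0.52 ± 0.12 (SE, adjusted p = 0.00901) against control and by 0.90 ± 0.12 (SE, adjusted p = 0.000637) against oligospermic. The second IL10RB probe gave 0.30 ± 0.15 (SE, adjusted p = 0.131) against control, which did not pass, and 0.92 ± 0.15 (SE, adjusted p = 0.00156) against oligospermic. For IL10RB against control, when 1 array was left out, the call held only without oligospermic array 2 or oligospermic array 3 and was lost without any other (log2 difference 0.45 to 0.58, adjusted p up to 0.034).

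**Figure D3:**
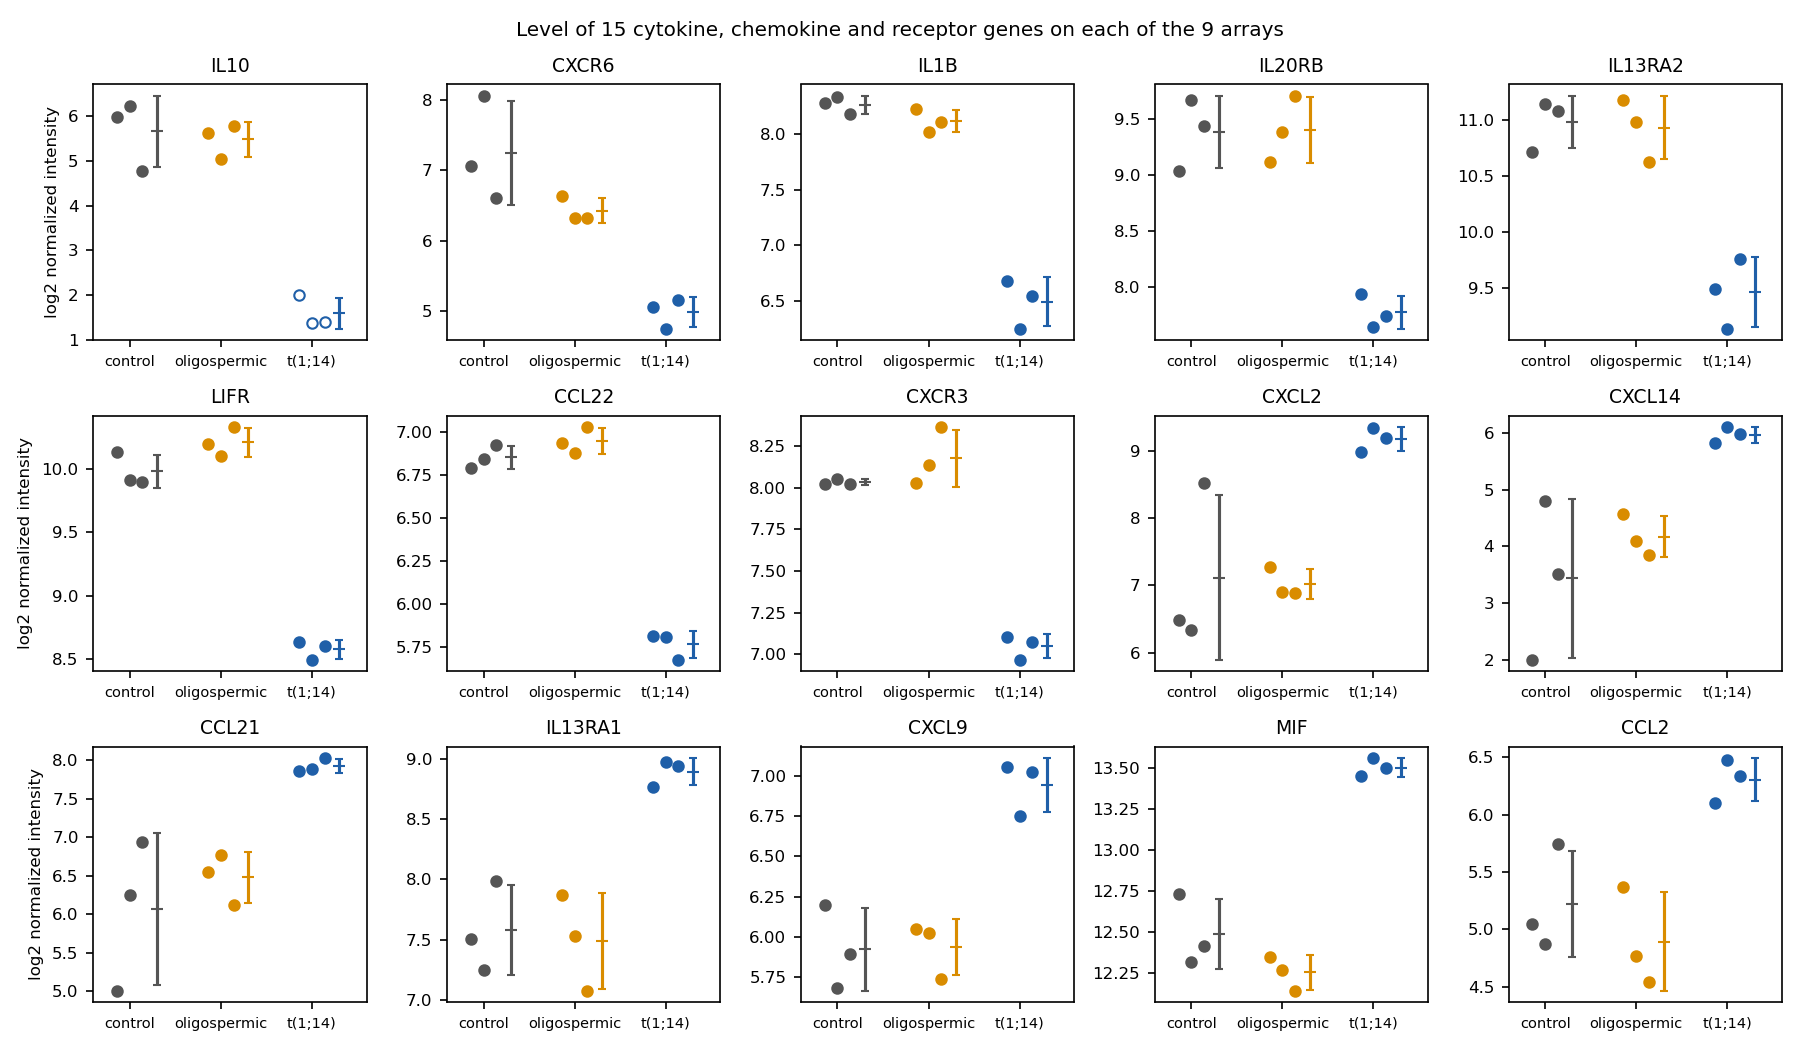
Level of 15 members (log2 normalized intensity, y axis, a separate scale in each panel) on the 3 arrays of each group (points), with the group mean ± SD beside them. Open points mark a group in which no array was above background, here only IL10 in t(1;14). The t(1;14) points lie below all others in the panels from IL10 to CXCR3 and above all others from CXCL2 to CCL2.

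Of the interleukin-1 family, 4 of 8 members were tested against control and 2 fell, beside 18.4% of all probes lower, a count too small to set the family apart. IL1B, a main inflammatory cytokine, was 8.28, 8.33 and 8.18 on the control arrays, 8.22, 8.02 and 8.11 on the oligospermic arrays and 6.68, 6.25 and 6.54 on the t(1;14) arrays. The t(1;14) arrays lay apart from all 6 others, and the difference was -1.77 ± 0.13 (SE, adjusted p = 3.02e-05) against control and -1.63 ± 0.13 (SE, adjusted p = 3.96e-05) against oligospermic. A probe named IL-1beta, above background on all 9 arrays, gave -0.19 ± 0.22 (SE, adjusted p = 0.502) against control. It is listed under another reference transcript than the probe named IL1B and need not read the same gene. The fall is therefore given for the probe named IL1B alone. IL1RAPL2, a receptor-like protein of this family, was 3.99, 4.49 and 4.36 on the control arrays, 4.16, 4.30 and 4.69 on the oligospermic arrays and 3.17, 2.35 and 3.51 on the t(1;14) arrays. It was below background on all t(1;14) arrays and above it on the other 6, so it was at least 1.58-fold lower than in control (adjusted p = 0.00928) and at least 1.7-fold lower than in oligospermic (adjusted p = 0.00588). IL1RAPL2 was tested only through the groups in which it was detected, and both p-values rest on t(1;14) signals below background. Both calls were lost when detection in both groups was required. Against control, when 1 array was left out, the call held only without t(1;14) array 3 and was lost without any other (log2 difference -1.51 to -0.94, adjusted p up to 0.0329). Against oligospermic, the call was lost without control array 3, oligospermic array 1, oligospermic array 2, oligospermic array 3 or t(1;14) array 1 (log2 difference -1.62 to -1.04, adjusted p up to 0.0243). IL18, an inflammatory cytokine related to IL1B, was 11.49, 11.09 and 11.57 on the control arrays, 11.14, 11.28 and 11.12 on the oligospermic arrays and 11.51, 11.42 and 11.67 on the t(1;14) arrays, and its difference from control was 0.15 ± 0.14 (SE, adjusted p = 0.41). IL1RN, the natural antagonist of the interleukin-1 receptor, was 2.45, 4.38 and 3.81 on the control arrays, 3.75, 4.42 and 4.29 on the oligospermic arrays and 4.54, 4.76 and 4.94 on the t(1;14) arrays. All t(1;14) values of IL1RN were the highest, but the control arrays spread widely and the difference of 1.20 ± 0.45 (SE, adjusted p = 0.0558) did not pass. IL1A, IL1R1 and IL1RL1 were not above background on any array.

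Among the receptors of interleukins 4 and 13, IL13RA2 was lower and IL13RA1 was higher in t(1;14). IL13RA2, the decoy receptor that binds interleukin 13 without signalling through the usual route, was 10.72, 11.15 and 11.08 on the control arrays, 11.18, 10.99 and 10.63 on the oligospermic arrays and 9.50, 9.14 and 9.76 on the t(1;14) arrays. No t(1;14) array reached the others, and the difference was -1.52 ± 0.21 (SE, adjusted p = 0.000761) against control and -1.46 ± 0.21 (SE, adjusted p = 0.000797) against oligospermic. Its probes 2 and 3 gave -1.60 ± 0.18 (SE) and -1.68 ± 0.31 (SE) against control and passed as well (adjusted p = 0.000281 and 0.00295). IL13RA1, the signalling chain that pairs with IL4R, was 7.50, 7.25 and 7.99 on the control arrays, 7.87, 7.53 and 7.08 on the oligospermic arrays and 8.77, 8.98 and 8.93 on the t(1;14) arrays. Here the t(1;14) arrays were the highest, with a difference of 1.31 ± 0.24 (SE, adjusted p = 0.00291) against control and 1.40 ± 0.24 (SE, adjusted p = 0.00193) against oligospermic. Its second probe gave 2.11 ± 0.60 (SE, adjusted p = 0.0192) against control, which did not pass. For IL13RA1 against control, the call was lost without control array 2, t(1;14) array 2 or t(1;14) array 3 (log2 difference 1.14 to 1.51, adjusted p up to 0.0127). IL4R, which binds interleukin 4, differed by 0.63 ± 0.20 (SE, adjusted p = 0.0317) from control, which did not pass, and by 0.84 ± 0.20 (SE, adjusted p = 0.00924) from oligospermic, which did. Its second probe had the other sign against oligospermic, with -0.63 ± 0.32 (SE, adjusted p = 0.125), and did not pass. For the call on the first probe, when 1 array was left out, the call held only without control array 2 or control array 3 and was lost without any other (log2 difference 0.79 to 0.89, adjusted p up to 0.0346). Both cytokines, IL4 and IL13, were below background on all arrays, as were IL2, IL7 and IL21.

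In the interleukin-6 and LIF family, LIFR, the receptor of leukemia inhibitory factor, was 10.13, 9.91 and 9.90 on the control arrays, 10.20, 10.10 and 10.33 on the oligospermic arrays and 8.64, 8.50 and 8.60 on the t(1;14) arrays. All of the t(1;14) arrays were lower than the others, with a difference of -1.40 ± 0.10 (SE, adjusted p = 3.42e-05) against control and -1.63 ± 0.10 (SE, adjusted p = 1.77e-05) against oligospermic. The second LIFR probe went the other way, with 6.85, 6.55 and 6.61 on the control arrays, 6.76, 6.76 and 6.55 on the oligospermic arrays and 7.03, 7.15 and 7.23 on the t(1;14) arrays. Its difference of 0.47 ± 0.11 (SE, adjusted p = 0.0101) against control was just outside the threshold, and the probe named LIFR-beta gave -0.51 ± 0.45 (SE, adjusted p = 0.365), so the 3 probes of this receptor did not give 1 direction. IL6R, the receptor of interleukin 6, was 4.84, 5.84 and 5.43 on the control arrays, 5.51, 6.15 and 6.23 on the oligospermic arrays and 4.43, 3.44 and 4.72 on the t(1;14) arrays. Its lower t(1;14) values passed against oligospermic with -1.77 ± 0.39 (SE, adjusted p = 0.00619) and did not pass against control with -1.17 ± 0.39 (SE, adjusted p = 0.0367). Of its other 2 probes, one gave -0.13 ± 0.47 (SE, adjusted p = 0.826) against control and -0.01 ± 0.47 (SE, adjusted p = 0.985) against oligospermic, and the other, tested only against oligospermic, gave -2.37 ± 0.44 (SE, adjusted p = 0.00278). For IL6R against oligospermic, the call was lost without control array 3, oligospermic array 2, oligospermic array 3, t(1;14) array 1 or t(1;14) array 2 (log2 difference -2.03 to -1.39, adjusted p up to 0.0255). The slide block moved IL6R against control past the threshold (adjusted p = 0.00151). IL6ST, the gp130 chain through which the receptors of IL6 and LIF signal, was 9.91, 10.08 and 10.03 on the control arrays, 10.23, 10.15 and 10.13 on the oligospermic arrays and 9.57, 10.03 and 9.67 on the t(1;14) arrays, and its differences of -0.25 ± 0.13 (SE, adjusted p = 0.134) from control and -0.42 ± 0.13 (SE, adjusted p = 0.0243) from oligospermic did not pass. Its probes 2 and 3 were lower too, with -0.33 ± 0.12 (SE, adjusted p = 0.044) and -0.46 ± 0.10 (SE, adjusted p = 0.00658) against control and -0.50 ± 0.12 (SE, adjusted p = 0.00798) and -0.60 ± 0.10 (SE, adjusted p = 0.00163) against oligospermic, so 1 of the 3 probes passed against control and 2 against oligospermic. Among ligands, IL6 was not detected and LIF was not tested.

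**Figure D4:**
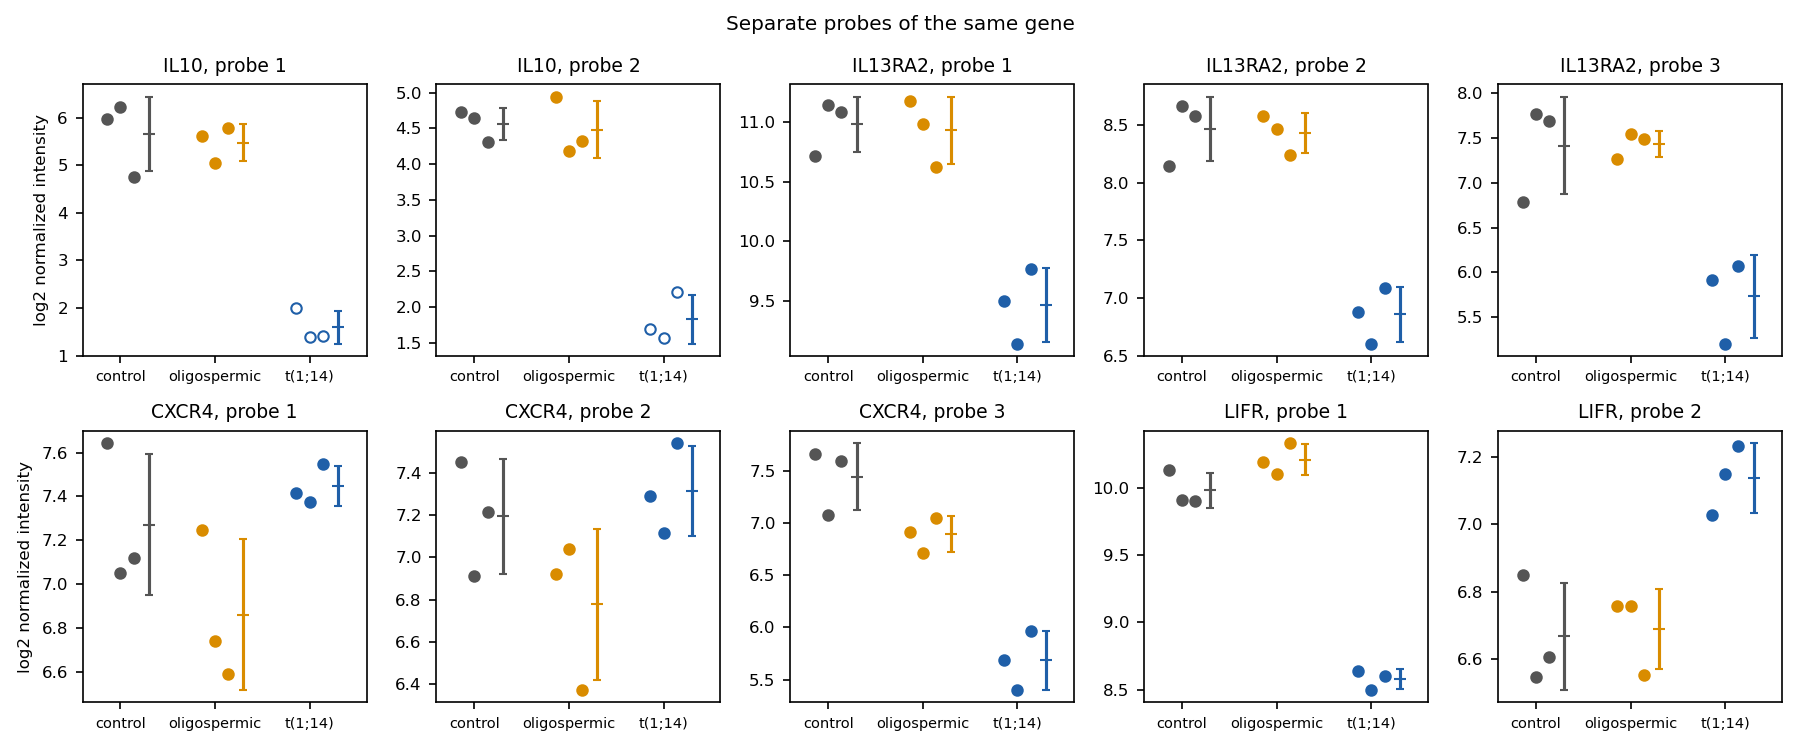
Level (log2 normalized intensity, y axis, a separate scale in each panel) of each probe of IL10, IL13RA2, CXCR4 and LIFR on the 3 arrays of each group (points), with the mean ± SD beside them. Open points mark a group with no array above background. The 2 IL10 and 3 IL13RA2 probes are all lower in t(1;14), whereas probe 3 of CXCR4 and probe 1 of LIFR are lower and the other CXCR4 and LIFR probes are not.

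Of 9 CXC and CX3C chemokines, 6 were tested against control, where 2 rose, none fell and 4 did not pass, 33.3% called beside 38.3% of all probes. CXCL14, a chemokine made in many tissues at rest, was 2.00, 4.80 and 3.51 on the control arrays, 4.57, 4.10 and 3.85 on the oligospermic arrays and 5.82, 6.09 and 5.97 on the t(1;14) arrays. The t(1;14) arrays were the highest, but the control values spanned a wide range, control array 1 was below background, and the difference of 2.52 ± 0.61 (SE, adjusted p = 0.0099) lay just inside the threshold. For CXCL14 against control, when 1 array was left out, the call held only without control array 1 or control array 2 and was lost without any other (log2 difference 1.81 to 3.20, adjusted p up to 0.0314). Against oligospermic it was 1.79 ± 0.61 (SE, adjusted p = 0.0367), outside the threshold. CXCL2, which attracts neutrophils through CXCR2, was 6.48, 6.34 and 8.53 on the control arrays, 7.28, 6.90 and 6.89 on the oligospermic arrays and 8.998, 9.35 and 9.20 on the t(1;14) arrays. Its t(1;14) arrays were above all others, with control array 3 close below them. The difference was 2.06 ± 0.53 (SE, adjusted p = 0.0128) against control and 2.16 ± 0.53 (SE, adjusted p = 0.00966) against oligospermic, so only the second passed. Without control array 3 the difference from control was 2.77 and passed (adjusted p = 7.32e-05). For CXCL2 against oligospermic, when 1 array was left out, the call held only without control array 2 or control array 3 and was lost without any other (log2 difference 2.08 to 2.29, adjusted p up to 0.0336), and with slide as a block the adjusted p was 0.0168. CXCL9, induced by interferon gamma and a ligand of CXCR3, was 6.19, 5.68 and 5.89 on the control arrays, 6.05, 6.02 and 5.74 on the oligospermic arrays and 7.06, 6.75 and 7.03 on the t(1;14) arrays. All t(1;14) values were higher, by 1.03 ± 0.16 (SE, adjusted p = 0.00139) against control and 1.01 ± 0.16 (SE, adjusted p = 0.00134) against oligospermic. CXCL10, another ligand of CXCR3 induced by interferon, differed from control by -0.20 ± 0.24 (SE, adjusted p = 0.507).

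CXCL12, the ligand of CXCR4, was 7.86, 8.54 and 8.87 on the control arrays, 8.11, 7.45 and 7.43 on the oligospermic arrays and 8.78, 9.09 and 8.74 on the t(1;14) arrays. Those of t(1;14) overlapped the controls, with a difference of 0.45 ± 0.29 (SE, adjusted p = 0.226), and were above all oligospermic arrays, with 1.21 ± 0.29 (SE, adjusted p = 0.00866). For CXCL12 against oligospermic, when 1 array was left out, the call held only without control array 1, control array 3 or oligospermic array 1 and was lost without any other (log2 difference 1.09 to 1.43, adjusted p up to 0.0341), and with slide as a block the adjusted p was 0.0218. The other 2 CXCL12 probes gave 1.14 ± 0.38 (SE) and 0.70 ± 0.30 (SE) against control, neither of which passed (adjusted p = 0.036 and 0.0812). CXCR4 itself was 7.64, 7.05 and 7.12 on the control arrays, 7.25, 6.74 and 6.59 on the oligospermic arrays and 7.42, 7.37 and 7.55 on the t(1;14) arrays on the probe used, a difference of 0.18 ± 0.21 (SE, adjusted p = 0.512) from control. The second CXCR4 probe gave 0.12 ± 0.22 (SE, adjusted p = 0.662), whereas probe 3 was 7.67, 7.08 and 7.60 on the control arrays, 6.92, 6.72 and 7.05 on the oligospermic arrays and 5.69, 5.40 and 5.96 on the t(1;14) arrays. There all t(1;14) arrays were lower than all others, with a difference of -1.76 ± 0.20 (SE, adjusted p = 0.000302) against control and -1.21 ± 0.20 (SE, adjusted p = 0.00165) against oligospermic. The 3 probes of CXCR4 therefore gave no single direction. Of the 19 members with at least 2 probes tested against control, 15 had all tested probes on the same side of 0, and no member had a probe called higher and another called lower.

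Of 16 CC chemokines, 12 were tested against control, where CCL21 rose and CCL17, CCL19, CCL22 and CCL27 fell, 41.7% of those tested beside 38.3% of all probes. CCL22, a ligand of CCR4, was 6.79, 6.84 and 6.93 on the control arrays, 6.94, 6.88 and 7.03 on the oligospermic arrays and 5.82, 5.81 and 5.68 on the t(1;14) arrays. The values within a group were close together and all t(1;14) arrays were below all others, with a difference of -1.09 ± 0.08 (SE, adjusted p = 4.47e-05) against control and -1.18 ± 0.08 (SE, adjusted p = 2.92e-05) against oligospermic. CCL17, the other ligand of CCR4, was 9.12, 9.29 and 9.28 on the control arrays, 9.30, 9.62 and 9.65 on the oligospermic arrays and 8.44, 8.58 and 8.59 on the t(1;14) arrays, with no overlap between t(1;14) and the others, and differed by -0.69 ± 0.12 (SE, adjusted p = 0.0019) and -0.98 ± 0.12 (SE, adjusted p = 0.000317). The pair of ligands of CCR7 differed in direction. CCL19 was 9.68, 9.75 and 9.71 on the control arrays, 9.84, 9.70 and 9.98 on the oligospermic arrays and 8.96, 9.28 and 8.88 on the t(1;14) arrays. It was lower on every t(1;14) array than on all others, with a difference of -0.67 ± 0.12 (SE, adjusted p = 0.00285) against control and -0.80 ± 0.12 (SE, adjusted p = 0.00112) against oligospermic. For CCL19 against control, the call was lost without control array 2, t(1;14) array 1 or t(1;14) array 3 (log2 difference -0.79 to -0.60, adjusted p up to 0.0131), and its second probe gave -0.20 and did not pass. CCL21, which lymphatic vessels and lymph nodes make, was 5.01, 6.26 and 6.95 on the control arrays, 6.54, 6.78 and 6.13 on the oligospermic arrays and 7.86, 7.89 and 8.03 on the t(1;14) arrays. Its t(1;14) arrays were the highest, with 1.86 ± 0.44 (SE, adjusted p = 0.00896) against control and 1.45 ± 0.44 (SE, adjusted p = 0.0236) against oligospermic. For CCL21 against control, when 1 array was left out, the call held only without control array 1 or control array 3 and was lost without any other (log2 difference 1.33 to 2.30, adjusted p up to 0.0313). CCR7, their receptor, was not detected.

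CCL27, best known from skin and a ligand of CCR10, was 7.28, 7.60 and 8.51 on the control arrays, 7.24, 7.45 and 7.78 on the oligospermic arrays and 6.52, 6.13 and 6.29 on the t(1;14) arrays. No t(1;14) array reached the others, with -1.48 ± 0.31 (SE, adjusted p = 0.00504) against control and -1.18 ± 0.31 (SE, adjusted p = 0.0128) against oligospermic. For CCL27 against control, the call was lost without control array 2, oligospermic array 2, t(1;14) array 1, t(1;14) array 2 or t(1;14) array 3 (log2 difference -1.74 to -1.13, adjusted p up to 0.0192). CCR10 differed from control by -0.36 ± 0.26 (SE, adjusted p = 0.268). CCL2, which attracts monocytes, was 5.05, 4.87 and 5.74 on the control arrays, 5.37, 4.77 and 4.54 on the oligospermic arrays and 6.11, 6.48 and 6.33 on the t(1;14) arrays. CCL2 was highest in t(1;14), and the difference of 1.08 ± 0.28 (SE, adjusted p = 0.0136) against control was just outside the threshold while that of 1.41 ± 0.28 (SE, adjusted p = 0.00384) against oligospermic passed. Against control, CCL2 passed without control array 3 (1.35, adjusted p = 0.00515) and without oligospermic array 1 (1.08, adjusted p = 0.00917). Against oligospermic, the call was lost without oligospermic array 2, oligospermic array 3, t(1;14) array 2 or t(1;14) array 3 (log2 difference 1.24 to 1.65, adjusted p up to 0.0158). CCL8, a monocyte chemokine related to CCL2, was above background on all t(1;14) arrays, on 1 control array and on no oligospermic array, with values of 3.30, 3.68 and 4.35 on the control arrays, 3.50, 3.67 and 2.35 on the oligospermic arrays and 5.17, 4.52 and 5.65 on the t(1;14) arrays. It was at least 2.67-fold higher in t(1;14) than in oligospermic (adjusted p = 0.00737), a call kept in only 3 of the 9 fits with 1 array left out, those without control array 1, control array 3 or t(1;14) array 2, and lost without any other (adjusted p up to 0.0284). CCL8 was tested there only through t(1;14), and its p rests on oligospermic signals below background. The call was lost when detection in both groups was required.

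Among 13 chemokine receptors, 8 were tested against control, where CCR1 rose, CXCR6 and CXCR3 fell and 5 did not pass, 37.5% called beside 38.3% of all probes. CXCR6, the receptor of CXCL16, was 7.07, 8.06 and 6.61 on the control arrays, 6.63, 6.32 and 6.32 on the oligospermic arrays and 5.06, 4.75 and 5.16 on the t(1;14) arrays. Each t(1;14) array was lower than each of the others, with a difference of -2.25 ± 0.34 (SE, adjusted p = 0.00107) against control and -1.43 ± 0.34 (SE, adjusted p = 0.00793) against oligospermic. For the second of these, when 1 array was left out, the call held only without control array 2 or control array 3 and was lost without any other (log2 difference -1.52 to -1.31, adjusted p up to 0.0286), and with slide as a block the adjusted p was 0.0108. CXCR3, the receptor of CXCL9 and CXCL10 on T cells, was 8.03, 8.06 and 8.02 on the control arrays, 8.03, 8.14 and 8.37 on the oligospermic arrays and 7.10, 6.97 and 7.08 on the t(1;14) arrays. The 3 control values lay close together and the t(1;14) values were all below them and below the oligospermic ones. The difference was -0.99 ± 0.10 (SE, adjusted p = 0.000169) against control and -1.13 ± 0.10 (SE, adjusted p = 8.08e-05) against oligospermic. CCR1, a receptor on monocytes for several CC chemokines, was 5.01, 4.40 and 4.14 on the control arrays, 4.01, 3.97 and 4.01 on the oligospermic arrays and 5.45, 5.52 and 5.33 on the t(1;14) arrays. It was highest in t(1;14), by 0.92 ± 0.20 (SE, adjusted p = 0.00668) against control and 1.44 ± 0.20 (SE, adjusted p = 0.00072) against oligospermic. For CCR1 against control, when 1 array was left out, the call held only without control array 1 and was lost without any other (log2 difference 0.73 to 1.16, adjusted p up to 0.0238). Its second probe differed from control by 0.34 ± 0.22 (SE, adjusted p = 0.228). CCR3, CCR6, CCR7 and CCR9 were among those detected on no array.

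Of 8 interferons and interferon receptors, 5 were tested and none passed in any comparison on the probe used. Of all probes, 38.3% passed in t(1;14) against control, 0.196% in oligospermic against control and 42.6% in t(1;14) against oligospermic. The count is too small to set the family apart. IFNAR1, a chain of the receptor of type I interferons, was 6.76, 6.23 and 6.28 on the control arrays, 6.71, 6.20 and 6.30 on the oligospermic arrays and 7.20, 7.25 and 6.86 on the t(1;14) arrays. All t(1;14) arrays were above all others, but the differences of 0.68 ± 0.20 (SE, adjusted p = 0.022) and 0.70 ± 0.20 (SE, adjusted p = 0.0183) stayed outside the threshold on this probe, and its second probe gave 1.18 ± 0.23 (SE, adjusted p = 0.00399) against control and passed. With slide as a block the first probe passed as well (adjusted p = 0.00309). IFNAR2, the partner chain, was 15.93, 15.68 and 15.97 on the control arrays, 15.92, 15.77 and 16.00 on the oligospermic arrays and 15.93, 15.78 and 15.72 on the t(1;14) arrays, with 1 t(1;14) array saturated. The groups overlapped, with a difference of -0.05 ± 0.11 (SE, adjusted p = 0.726) from control. IFNGR1, a chain of the interferon gamma receptor, was 6.10, 6.09 and 7.19 on the control arrays, 7.13, 7.04 and 6.66 on the oligospermic arrays and 7.22, 7.15 and 7.24 on the t(1;14) arrays. The controls split into arrays 1 and 2 and a higher array 3, and the difference of 0.74 ± 0.29 (SE, adjusted p = 0.0638) did not pass, though it did without control array 3 (1.11, adjusted p = 0.00126). The other 3 IFNGR1 probes gave 0.47 ± 0.23 (SE), 0.31 ± 0.21 (SE) and -0.57 ± 0.30 (SE) against control, none of which passed, so its 4 probes gave no single direction. IFNB1 and IFNG were not detected. In the interleukin-12 family only IL12A, a subunit of interleukin 12, was tested, above background on 2 control arrays and no other. It did not pass against control (adjusted p = 0.023), where the limit was at least 1.14-fold lower. Without control array 3 it did (adjusted p = 0.00392), on t(1;14) signals that were all below background. In the interleukin-17 family 3 members were tested with differences from control of -0.31 to -0.03. None of those passed, beside 38.3% of all probes, and 3 members are too few to set the family apart.

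MIF, a cytokine that Leydig cells are known to make, was 12.73, 12.32 and 12.42 on the control arrays, 12.35, 12.27 and 12.14 on the oligospermic arrays and 13.45, 13.56 and 13.50 on the t(1;14) arrays. The t(1;14) arrays were above all others, with a difference of 1.02 ± 0.12 (SE, adjusted p = 0.000371) against control, a ratio of 2.02, and 1.25 ± 0.12 (SE, adjusted p = 0.000121) against oligospermic. The enzyme IL4I1 was 13.31, 13.00 and 13.32 on the control arrays, 13.46, 13.19 and 13.26 on the oligospermic arrays and 12.58, 12.80 and 12.45 on the t(1;14) arrays. Its t(1;14) arrays were the lowest, with a difference of -0.60 ± 0.14 (SE, adjusted p = 0.008) against control and -0.69 ± 0.14 (SE, adjusted p = 0.00379) against oligospermic. For IL4I1 against control, when 1 array was left out, the call held only without control array 2, oligospermic array 1 or t(1;14) array 2 and was lost without any other (log2 difference -0.70 to -0.52, adjusted p up to 0.031). Against oligospermic, the call was lost without oligospermic array 1, oligospermic array 3, t(1;14) array 1 or t(1;14) array 3 (log2 difference -0.78 to -0.61, adjusted p up to 0.016).

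The second comparison set the oligospermic boar against the controls. None of 56 tested members passed in either direction with limma, beside 0.196% of the 39713 probes tested. At an unadjusted p under 0.05, 7 of the 56 members passed, beside 13.4% of all probes. The arrays of the 2 groups did not overlap for 8 members, beside 15.7% of all probes. Among members detected on at least 2 arrays of both groups, the differences lay between -1.02 for LIFR-beta and 0.73 for CXCL14, and the median over all 56 was -0.02, with 2 of them below background throughout 1 group. IL10 was -0.18 ± 0.40 (SE, adjusted p = 0.912), IL1B -0.14 ± 0.13 (SE, adjusted p = 0.707) and MIF -0.24 ± 0.12 (SE, adjusted p = 0.474) in oligospermic minus control. CXCL12 had -0.76 ± 0.29 (SE, adjusted p = 0.309) and CXCR6 -0.82 ± 0.34 (SE, adjusted p = 0.349), and neither passed. None of the alternatives in the processing gave a call.

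The third comparison set the t(1;14) boar against the oligospermic boar, which shares the low sperm count but not the translocation. Of 56 tested members, 10 were higher in t(1;14) and 13 lower, 41.1% together, beside 42.6% of the 40567 probes tested (22.8% higher and 19.8% lower). The arrays did not overlap for 38 of the 56, beside 70.9% of all probes. IL10 and CXCL2 passed the fold threshold too in the fit, beside 6.47% of all probes, but IL10 had no signal above background in t(1;14) and its limit of at least 3.65-fold lies below that threshold. Of the 23 calls, 17 were also called against control, 5 higher and 12 lower in both comparisons, and 6 were not: CCL2, CCL8, CXCL12, CXCL2 and IL4R, which were higher, and IL6R, which was lower. CCL21, CXCL14 and CCL27 were called against control alone, though against oligospermic CCL27 passed under 6 of 20 alternatives and CCL21 and CXCL14 under 4 each. A call in one comparison and not the other does not show that the 2 differ. All 23 had 1 direction on the 3 slides, which again is no added support. With slide as a block 7 members were higher and 18 lower, and CCL8 (adjusted p = 0.0135) and IL4R (adjusted p = 0.0126) were lost together with CXCL2, CXCL12 and CXCR6. With the block 7 others passed, each with 1 direction on the 3 slides, which is likewise no added support. IFNAR1 was higher (adjusted p = 0.00249). CXCR2 (adjusted p = 0.000204), the chemokine CCL27 (adjusted p = 0.00267) and the receptors IL17RC (adjusted p = 0.00689) and IL7R (adjusted p = 0.00879) were lower. The other two, CX3CL1 (adjusted p = 0.00024) and CCL3L1 (adjusted p = 0.00157), were tested only through the oligospermic group, with 2 arrays above background there, and had 1 and 0 such arrays in t(1;14), so the size of their difference is not known.

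Genes that carry cytokine signals inside the cell were counted from fixed lists for t(1;14) against control. Of 21 genes of the JAK, STAT and SOCS list on the array, 19 were tested, 5 rose, 4 fell and 10 did not pass. The 3 with the smallest p were STAT4, the factor that interleukin 12 activates, with -2.55 ± 0.15 (SE, adjusted p = 1.71e-05), and the inhibitors of cytokine signalling SOCS6 with -1.87 ± 0.13 (SE, adjusted p = 2.63e-05) and SOCS5 with -1.37 ± 0.12 (SE, adjusted p = 6.93e-05). Of 18 genes of the interleukin-1 and Toll adaptor pathway, 5 rose and 3 fell. The 3 with the smallest p, which are named by that rule, were all among those that rose. They were the adaptor MYD88 with 0.94 ± 0.10 (SE, adjusted p = 0.000203), NFKBIA, the inhibitor of NF-κB, with 1.17 ± 0.13 (SE, adjusted p = 0.000276), and TAB1, a partner of the kinase TAK1, with 1.04 ± 0.14 (SE, adjusted p = 0.000747). Of 15 tested interferon response genes, 2 rose and 1 fell, the antiviral enzyme OAS1, with -2.80 ± 0.25 (SE, adjusted p = 9.10e-05). Of 10 tested atypical chemokine receptors and other genes of cell movement, 1 rose and 1 fell, and of 7 tested other class I cytokines and receptors, 2 rose and 2 fell. These shares are to be read beside the 38.3% of all probes called.

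The current gene names and chromosomes of 96 of the 100 members were found in a RefSeq table of the Sscrofa11.1 assembly. Of these, 4 lie on chromosome 1 and 3 on chromosome 14, the chromosomes of the translocation, where 3 were tested and MIF, on chromosome 14, was the only one called against control. The X chromosome holds 6 members, of which 4 were tested: IL13RA1 was higher in t(1;14), and IL13RA2, CXCR3 and IL1RAPL2 were lower. IL1RAPL2 was below background on all t(1;14) arrays and kept its call in only 1 of 9 fits with 1 array left out. Over all 40643 probes tested, 38.3% were called, 19.8% higher and 18.4% lower. The counts by chromosome are too small to set any of them apart.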

How the data were processed

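Per the labels and the study's methods, total RNA of testicular biopsies was labelled with Cy3 and hybridized to a custom porcine 60-mer array, 1 sample an array, and the deposited intensity is the processed signal of Feature Extraction 11.5.1.1, after the authors' background subtraction and detrending. The authors also deposited log2 values normalized with limma, which were used to choose 1 probe a gene (for 43 genes that were not in that table, the mean processed signal) and as an alternative. Here log2 processed signals were quantile normalized over 9 arrays and tested with limma 3.58.1 in R 4.3.3, with 1 mean for each of 3 groups and Benjamini-Hochberg adjustment over the probes tested. A probe was tested where at least 2 of 3 arrays of either group were well above background. Members, lists and tests were chosen with earlier results of these data known.

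Named genes are those past both thresholds, the 6 largest rises and falls among those past the p threshold in each comparison, the 8 brightest in control, those detected in all arrays of 1 group and none of another, and a fixed set with known roles in testis. Other members that passed, and genes set beside a named ligand or receptor, were named after their values were seen. For a group with no array above background, "at least" folds use the lowest signal above background on each array. On simulated data the fit was tested before use. Alternatives were the scaling, background correction, filter, thresholds, probe choice, slide and replicate number as blocks, and leaving out each array. Array number limits the precision. Replicate numbers coincide with slides for control and oligospermic arrays, whose same-numbered deviations correlated at 0.101 to 0.478 over 41105 probes, so they pair those groups. For the t(1;14) arrays the numbers do not coincide with slides (r from -0.421 to 0.139 by number), whereas arrays on the same slide correlated at 0.109 to 0.339 with control and 0.292 to 0.489 with oligospermic. The fit reported first leaves slide out, and the calls that slide as a block adds or removes are given beside it. Gene names of 96 members were matched to RefSeq, 69 by accession, 26 by symbol and 1 by synonym. A few items are not reported here.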

Additional observations from a re-analysis of the deposited data

Results flagged for a closer look

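A probe named with a hyphen, IL-5, lies outside the naming rule and entered no comparison of the members. It was well above background on 2 of 3 oligospermic arrays and on 0 control and 0 t(1;14) arrays, and it did not pass in oligospermic against control (adjusted p = 0.54).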

How the results depend on the processing

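In oligospermic against control, 0 members passed under every alternative, including the replicate block, which left 0 higher and 0 lower. Against control, the members higher in t(1;14) numbered 3 when each comparison was fitted on its own 6 arrays, 4 without the filter on dim probes, 2 with replicate number as a block and 12 with the adjusted p relaxed to 0.05. Leaving out 1 array gave 2 to 8 higher and 9 to 13 lower, and 2 to 6 past the fold threshold, 6 of them without control array 3. The number past both thresholds was 0 with normexp background correction, 5 with the adjusted p relaxed to 0.05 and 14 with an absolute log2 difference of at least 1. Against oligospermic, 6 were higher without the filter, 5 with the replicate block and 20 were lower when every probe was counted. Past both thresholds were 0 with normexp, 1 each without the filter, with the filter in both groups, with slide as a block and with the replicate block, 18 at an absolute log2 difference of at least 1 and 5 when every probe was counted. Leaving out 1 array gave 5 to 11 higher, 9 to 14 lower and 1 to 2 past both thresholds. Normexp adds an offset of 50 before the log, which lowers the fold of dim probes by construction. For the other changes the cause was not tested. Over the named members, comparisons and alternatives run here, no called value changed sign, 137 lost the call, 538 held it and 32 uncalled ones gained it. The same-numbered t(1;14) arrays lie on other slides than their namesakes, so the replicate block joins arrays that share only a number.

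The oligospermic and t(1;14) groups hold 1 boar each, so differences between boars of a kind could not be measured. Members below background have limits only, and 44 of 100 members were not tested in each comparison.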

Other observations

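The array holds 8 further probes whose names carry a hyphen, for IL-5, IL-18RA, IL-1beta and IL-6, and 3 of them were above background on at least 2 arrays of a group. The second IL-5 probe, for a cytokine that acts on eosinophils, differed by -0.56 ± 0.13 (SE, adjusted p = 0.00707) in t(1;14) minus control and by -1.02 ± 0.13 (SE, adjusted p = 0.000367) in t(1;14) minus oligospermic. Of the 3 IL-1beta probes, 1 was above background on all 9 arrays and gave -0.19 ± 0.22 (SE, adjusted p = 0.502) in t(1;14) minus control, whereas the probe named IL1B gave -1.77 ± 0.13 (SE, adjusted p = 3.02e-05). The longest run of bases that the IL1B probe shares with any IL-1beta probe was 6. The IL-1beta probes are listed under another reference transcript than IL1B, so the 2 names need not stand for the same gene. No IL-6 or IL-18RA probe was above background on any array.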
